A study of Mus musculus with 6 samples.

Results

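Ribosomes are assembled in the nucleolus, where RNA polymerase I transcribes the ribosomal DNA and a large set of factors folds, cuts and modifies the precursor rRNA. The genes described here encode 44 of these nucleolar assembly factors, among them RNA polymerase I subunits, the proteins of small nucleolar ribonucleoproteins (snoRNPs), the small-subunit processome and the large-subunit assembly factors. They were chosen by gene symbol, and all 44 were found among the 53465 genes of the expression table. Genes of this kind are known targets of the MYC transcription factors and are abundant in growing cells, leukaemia cells included.

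The cells were Nras(G12D)/MLL-AF9 cells, 1 mouse leukaemia line that carries an oncogenic Nras allele and the MLL-AF9 fusion, in both groups alike. They grew in RPMI medium with fetal bovine serum and mouse SCF, IL-3 and IL-6. The OMP group received 100 µM OMP (4'-O-methylpyridoxine, a vitamin B6 analog also called ginkgotoxin) for 6 days. The Vehicle group received the same volume of PBS for the same 6 days. Each group had 3 poly(A)-selected RNA libraries, and the comparison asks which transcripts differ between OMP and Vehicle. Library totals were 3494986 to 3720117 reads in OMP and 3737843 to 4247619 reads in Vehicle. The labels do not say whether the 3 libraries of a group came from separate cultures, so p-values measure the spread between libraries, which may be technical.

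The cells labelled leukemic expressed myeloid genes. The 12 myeloid markers examined, such as Ptprc, Itgam, Spi1 and Hoxa9, match 13 rows of the table, since Itgam has a second identifier, which was near 0 and not tested. The other 12 rows were above the filter on low values, and 3 of them were higher and 7 lower in OMP. Summed over the 13 rows the level was 1427 to 1527 RPKM in OMP and 2954 to 3042 RPKM in Vehicle. Markers of other lineages were at or near 0, with Pax5, Cd3e and Pf4 listed at 0 in all 6 libraries. Summed RPKM was at most 0.724 in OMP and 0.959 in Vehicle for 8 erythroid genes, and at most 0.587 and 0.551 for 6 B-cell genes. T-cell genes summed to at most 4.04 RPKM in OMP and 3.34 in Vehicle, and megakaryocyte genes to at most 3.52 and 1.36 RPKM. Of 6 genes of stroma and endothelium, Pecam1 carried nearly all of a summed level of 57.2 to 59.5 RPKM in OMP and 84.1 to 88.4 RPKM in Vehicle.

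Transcripts of the assembly factors were mostly higher in OMP-treated cells. Of the 44 factors tested, 34 rose and 3 fell past an adjusted p of 0.05 with limma's moderated test on log2(RPKM + 0.5), and 7 did not pass. Across all 11020 genes tested, 15.4% rose and 27.5% fell. In either direction 43% of all genes passed. The share among the factors was 77.3% higher and 6.82% lower. Their median log2 fold change (OMP over Vehicle, as everywhere here) was 0.38, with a range of -0.41 to 0.87, while the median over all genes tested was -0.09. RPKM of the groups did not overlap for 37 factors, 34 of them higher and 3 lower in OMP, whereas 19.9% of all genes tested lay higher without overlap and 34.6% lower. The balance of calls over all genes depended on scaling: 1702 genes rose and 3033 fell as deposited, against 1215 and 3973 after rescaling to TPM, 2366 and 2236 with median-of-ratios scaling, and 2244 and 2321 with quantile normalization. The factors gave 31 rises and 4 falls with TPM, 35 and 1 with median-of-ratios scaling, and 34 and 1 with quantile normalization. Once the dependence on GC content and length was taken out, 2475 genes rose and 2159 fell, and 35 factors rose and 1 fell. The 3 factors that fell were Exosc5, Imp4 and Tcof1, and the 7 that did not pass were Polr1e, Fbl, Nop58, Gar1, Imp3, Ddx10 and Wdr74.

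**Figure D1:**
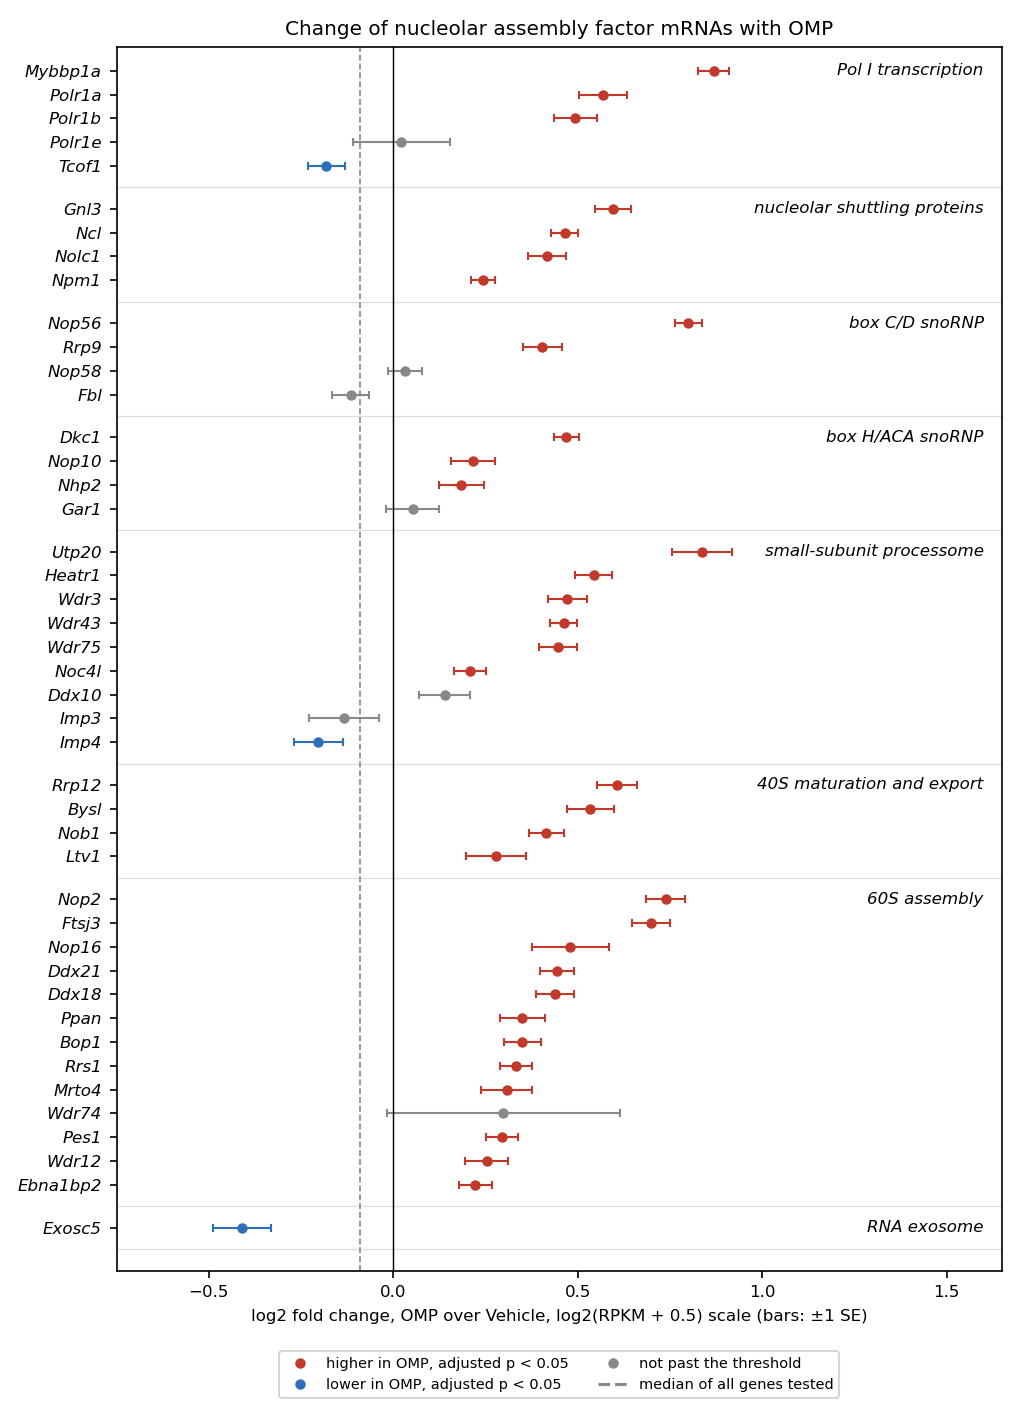
Log2 fold change of each of the 44 factors, OMP over Vehicle, with 1 SE on either side, grouped by role; red marks factors higher in OMP, blue those lower and grey those not past the threshold, and the dashed line is the median of all genes tested. Mybbp1a, Utp20 and Nop56 lie farthest to the right, Exosc5 farthest to the left, and 39 of the 44 points lie above 0.

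As a share of all reads, the 44 factors took 1.26%, 1.24% and 1.28% of the OMP libraries, with 95% Wilson intervals between 1.23% and 1.29%. In the Vehicle libraries they took 0.943%, 0.969% and 0.949%, with intervals between 0.934% and 0.978%. These intervals cover counting error only, since PCR copies cannot be told from separate molecules here. The groups did not overlap. They did not overlap without Npm1 either, the factor with the highest RPKM, at 1.07% to 1.11% in OMP against 0.799% to 0.817% in Vehicle. Ncl, which stayed in, held more reads than Npm1, with 27118 against 18871 in OMP and 22032 against 17895 in Vehicle. The order of these genes by RPKM rests on length. Ncl was computed over 8202 bases, while its next longest protein-coding transcript has 661, and Npm1 over 1633. RPKM and shares of reads are relative to the library, so the amount of these mRNAs per cell was not measured.

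Promoter stretches of 4 genes are shown because they carry, or lack, the letters CACGTG, the E-box core to which MYC and MAX are known to bind, in 3 genes that differ in direction and in Nop56. Each is the 250 bases before a RefSeq transcript start on GRCm38.p6, written 5′ to 3′ on the plus strand, with CACGTG in capitals.
Nop2, chr6:125131633-125131882, higher in OMP: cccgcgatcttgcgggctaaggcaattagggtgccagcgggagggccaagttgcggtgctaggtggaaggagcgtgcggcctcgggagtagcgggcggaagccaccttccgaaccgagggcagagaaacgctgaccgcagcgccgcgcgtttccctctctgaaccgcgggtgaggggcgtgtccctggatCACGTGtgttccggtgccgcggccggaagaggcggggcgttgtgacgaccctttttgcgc
Exosc5, chr7:25658903-25659152, lower in OMP: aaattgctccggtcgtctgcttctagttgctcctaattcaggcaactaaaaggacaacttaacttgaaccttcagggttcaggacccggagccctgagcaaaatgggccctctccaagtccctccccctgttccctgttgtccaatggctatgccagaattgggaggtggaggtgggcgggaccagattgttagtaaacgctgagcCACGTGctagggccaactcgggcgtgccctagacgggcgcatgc
Imp4, chr1:34439579-34439828, lower in OMP with an unstable call: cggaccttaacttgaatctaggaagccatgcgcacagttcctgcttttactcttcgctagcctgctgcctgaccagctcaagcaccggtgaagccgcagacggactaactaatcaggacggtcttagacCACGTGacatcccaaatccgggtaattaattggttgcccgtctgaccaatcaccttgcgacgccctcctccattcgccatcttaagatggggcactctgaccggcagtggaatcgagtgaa
Nop56, chr2:130274162-130274411, higher in OMP, without CACGTG: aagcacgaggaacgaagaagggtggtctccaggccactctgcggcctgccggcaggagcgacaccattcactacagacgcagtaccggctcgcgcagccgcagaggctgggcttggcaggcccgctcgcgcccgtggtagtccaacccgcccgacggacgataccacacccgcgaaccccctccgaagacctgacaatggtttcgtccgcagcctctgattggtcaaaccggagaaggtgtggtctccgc
The hexamer begins 60 bases before the start in Nop2, 44 before it in Exosc5 and 121 before it in Imp4. CACGTG is its own reverse complement, so a single search covers both strands.

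RefSeq promoter entries, which run from 250 bases before to 50 bases after the start, matched 38 of the 44 factors. Of these 38 genes, 8 held CACGTG (21.1%), beside 12.4% of the 8232 genes tested that had an entry and 8.09% of all 27025 genes with one. Apart from Nop2, Exosc5 and Imp4 they were Mybbp1a, Utp20, Wdr43, Pes1 and Ltv1, in which it lies 2 to 40 bases after the start. Over all genes tested, 16.3% of those higher in OMP and 10.8% of those lower held it. The 8 factors with the hexamer comprised 6 that rose and 2 that fell, with a median log2 fold change of 0.38. Of the 2, Exosc5 held in all 17 processing alternatives, while the Imp4 call was lost in 9. The 30 without it comprised 24 that rose and none that fell, with a median of 0.42. Tcof1, the remaining factor that fell, had no promoter entry and is in neither set. GGGCGG or its reverse complement CCGCCC, the core of a GC box, was found in 71.1% of the factors' promoters by gene and in 69.6% of those of the genes tested. A match describes the sequence of the window and not a bound site.

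Factors of RNA polymerase I transcription moved in both directions. Mybbp1a, a nucleolar protein that binds MYB and takes part in RNA polymerase I transcription and rRNA processing, stood at 199.1, 202.2 and 210.5 RPKM in OMP, against 115.5, 111.9 and 107.1 RPKM in Vehicle. Every OMP library was above every Vehicle library. The gene (ENSMUSG00000040463, GRCm38 chr11:72441355-72451768, plus strand) rose 1.83-fold, the largest rise of the 44 (log2 fold change 0.87 ± 0.04 SE, limma adjusted p = 2.41e-06). Polr1a and Polr1b encode the large subunits that together form the active centre of the polymerase. Polr1a had 19.47, 18.02 and 18.05 RPKM in OMP and 12.5, 12.5 and 11.9 RPKM in Vehicle. Polr1b had 30.1, 32.0 and 30.7 RPKM in OMP and 22.8, 20.8 and 21.8 RPKM in Vehicle. Both rose without overlap, by 0.57 ± 0.07 and 0.49 ± 0.06 on the log2 scale (limma adjusted p = 0.00025 and 0.000265).

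The other two of this group did not pass as higher. Polr1e, a further polymerase subunit, had 7.76, 9.99 and 7.74 RPKM in OMP and 8.87, 7.12 and 9.07 RPKM in Vehicle, so that the groups overlapped (log2 fold change 0.02 ± 0.13, limma adjusted p = 0.912). Tcof1 encodes treacle, the nucleolar scaffold that is mutated in Treacher Collins syndrome. It had 40.5, 39.6 and 43.3 RPKM in OMP and 47.3, 46.0 and 46.9 RPKM in Vehicle. Without overlap it fell by 0.18 ± 0.05 on the log2 scale (limma adjusted p = 0.0179). The call did not hold with median-of-ratios scaling (-0.09, adjusted p = 0.157), quantile normalization (-0.13, adjusted p = 0.068) or the GC and length trend removed (-0.07, adjusted p = 0.23). It was also lost without OMP replicate 2, Vehicle replicate 1 or Vehicle replicate 3 (adjusted p 0.0507 to 0.0564).

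All 4 abundant shuttling proteins of the nucleolus rose. Npm1, nucleophosmin, a histone and ribosome chaperone whose gene is often mutated in acute myeloid leukaemia, was the highest of the 44 with 1099.8, 1058.9 and 1062.1 RPKM in OMP and 883.2, 932.0 and 904.9 RPKM in Vehicle. The groups were apart, and the rise was among the smallest of the called factors (0.24 ± 0.03 on the log2 scale, limma adjusted p = 0.000513). Ncl, nucleolin, an RNA-binding protein of the dense nucleolus, had 307.3, 297.8 and 315.7 RPKM in OMP and 218.0, 227.3 and 221.6 RPKM in Vehicle. It rose 1.38-fold (limma adjusted p = 3.06e-05), with every OMP library above every Vehicle library. Gnl3, nucleostemin, a GTPase of stem and cancer cells, had 137.6, 128.1 and 130.9 RPKM in OMP and 84.8, 84.6 and 92.7 RPKM in Vehicle, without overlap. It rose 1.51-fold (limma adjusted p = 4.6e-05). Nolc1, a chaperone of snoRNPs, rose 1.33-fold between averages of 89.4 ± 4.58 RPKM in OMP and 66.9 ± 2.78 RPKM in Vehicle (SD, n = 3 each; limma adjusted p = 0.000373).

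**Figure D2:**
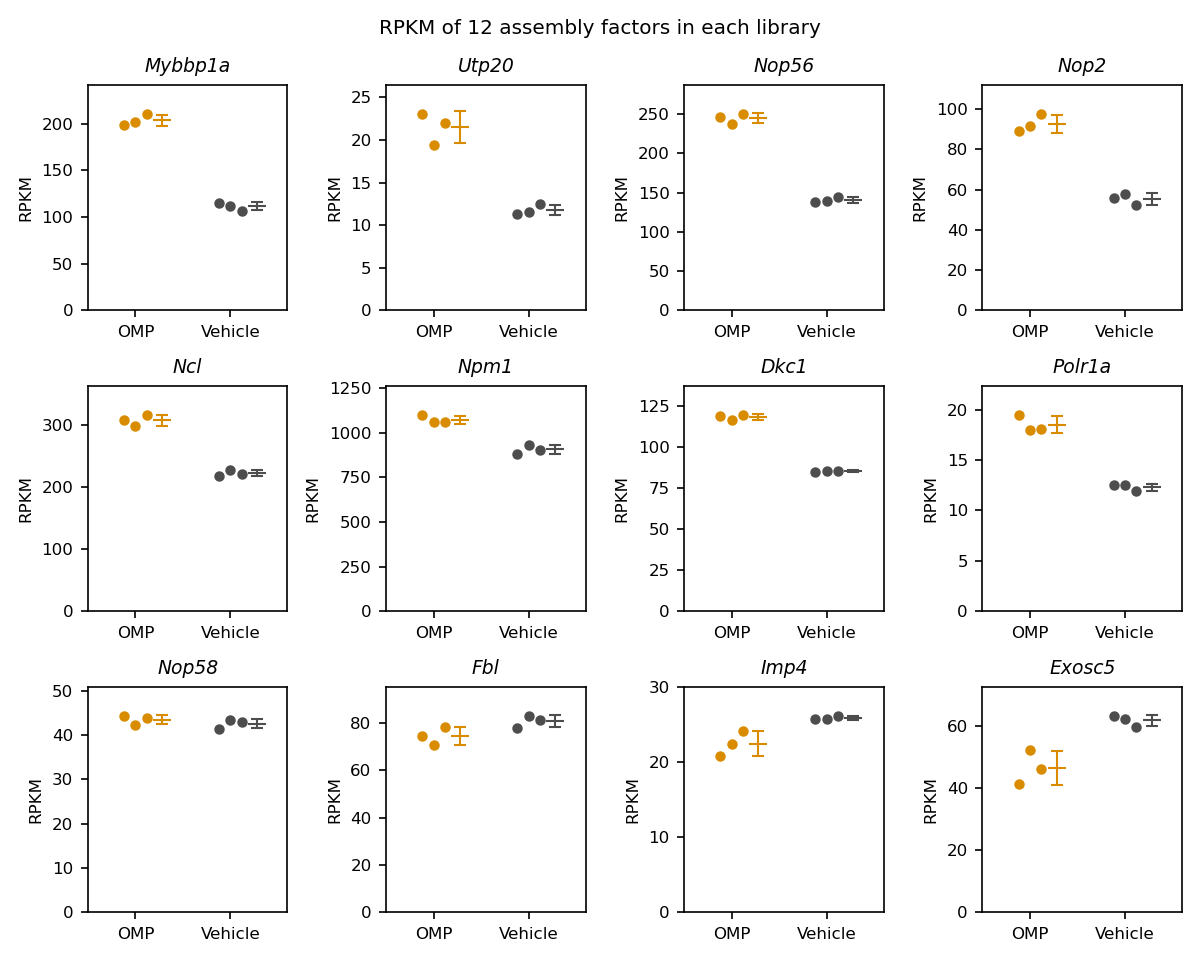
RPKM of 12 factors in each of the 3 OMP libraries (left, orange) and the 3 Vehicle libraries (right, dark grey) with the mean and SD beside the points; each vertical axis starts at 0. Groups are apart in the first 8 panels with OMP higher, overlap for Nop58 and Fbl, and are apart with OMP lower for Imp4 and Exosc5.

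Box C/D snoRNPs guide the methylation of rRNA riboses and, with the U3 RNA, the first cuts of the precursor. Their core proteins split in these data. Nop56, 1 of the 2 paralogous scaffold proteins, had 246.9, 237.7 and 250.3 RPKM in OMP and 137.8, 139.5 and 144.4 RPKM in Vehicle. Nop58, the paralog, had 44.3, 42.3 and 43.8 RPKM in OMP and 41.3, 43.3 and 42.9 RPKM in Vehicle. Fbl, fibrillarin, the methyltransferase, had 74.6, 70.6 and 78.1 RPKM in OMP and 78.0, 82.9 and 81.0 RPKM in Vehicle. Only Nop56 was clear of overlap among these 3. Nop56 (ENSMUSG00000027405, GRCm38 chr2:130274430-130279313, plus strand) rose 1.74-fold (log2 fold change 0.80 ± 0.04, limma adjusted p = 1.93e-06). Nop58 gave 0.03 ± 0.05 (adjusted p = 0.618) and Fbl -0.12 ± 0.05 (adjusted p = 0.0908), both by limma. With TPM scaling Fbl passed as lower (-0.20, adjusted p = 0.0158). Rrp9, the protein specific to the U3 snoRNP, had 61.7, 56.8 and 63.0 RPKM in OMP and 46.7, 45.6 and 44.4 RPKM in Vehicle and rose 1.32-fold without overlap (limma adjusted p = 0.000468).

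Ratios within a library do not change when all values of a library are multiplied by the same number. Quantile normalization and the GC and length correction can change them, and the ratios here were taken from RPKM as deposited. The Nop56 to Nop58 ratio was 5.58, 5.63 and 5.72 in OMP and 3.33, 3.22 and 3.36 in Vehicle, with averages of 5.64 ± 0.0699 and 3.31 ± 0.0742 (SD, n = 3 each). Nop56 to Fbl was 3.31, 3.37 and 3.20 in OMP and 1.77, 1.68 and 1.78 in Vehicle. Neither ratio overlapped between groups, at log2 differences of 0.77 and 0.92. Each gave a two-sided exact permutation p of 0.1, the smallest that 3 libraries against 3 allow, and 0.15 after Benjamini-Hochberg adjustment over the 6 ratios computed. Both ratios rest on Nop56, and their height also rests on transcript length, since the RPKM of Nop58 was computed over 9507 bases while its next longest protein-coding transcript has 1713.

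Box H/ACA snoRNPs convert rRNA uridines to pseudouridine and share their proteins with telomerase. Dkc1, dyskerin, the catalytic subunit, had 118.7, 116.5 and 119.4 RPKM in OMP and 84.6, 85.5 and 85.6 RPKM in Vehicle. The libraries of each group lay close together and the groups were apart, with a rise of 0.47 ± 0.03 on the log2 scale (limma adjusted p = 2.63e-05). Nhp2, an RNA-binding core protein and the most abundant of the 4, had 137.6, 130.0 and 123.8 RPKM in OMP and 122.2, 105.8 and 116.6 RPKM in Vehicle. Gar1, which is added last to the particle, had 62.8, 61.1 and 71.1 RPKM in OMP and 63.6, 66.3 and 58.0 RPKM in Vehicle. Nhp2 just cleared the Vehicle range, whereas Gar1 overlapped it (log2 fold change 0.05 ± 0.07, limma adjusted p = 0.584). Nop10, the smallest core protein, averaged 85.8 ± 6.06 RPKM in OMP and 73.8 ± 3.15 RPKM in Vehicle (SD, n = 3 each). Nhp2 and Nop10 passed the threshold as higher, by 0.18 ± 0.06 and 0.21 ± 0.06 on the log2 scale (limma adjusted p = 0.0395 and 0.0191). Neither passed with TPM scaling (0.10, adjusted p = 0.21 for Nhp2, and 0.13, adjusted p = 0.101 for Nop10). Nhp2 lost its call without OMP replicate 1 or 2 or Vehicle replicate 2 or 3 (adjusted p 0.0674 to 0.118), and Nop10 without OMP replicate 2 or 3 or Vehicle replicate 1 or 3 (adjusted p 0.0551 to 0.0634). Nhp2 also lost it with no filter on low values (adjusted p = 0.0938).

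Dkc1 to Gar1 was 1.89, 1.91 and 1.68 in OMP and 1.33, 1.29 and 1.48 in Vehicle, again without overlap (log2 difference 0.42, exact permutation p = 0.1, adjusted 0.15). Polr1a to Polr1b was 0.646, 0.563 and 0.589 in OMP and 0.548, 0.599 and 0.546 in Vehicle. These polymerase subunits overlapped in their ratio (log2 difference 0.08, exact permutation p = 0.3, adjusted 0.36).

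**Figure D3:**
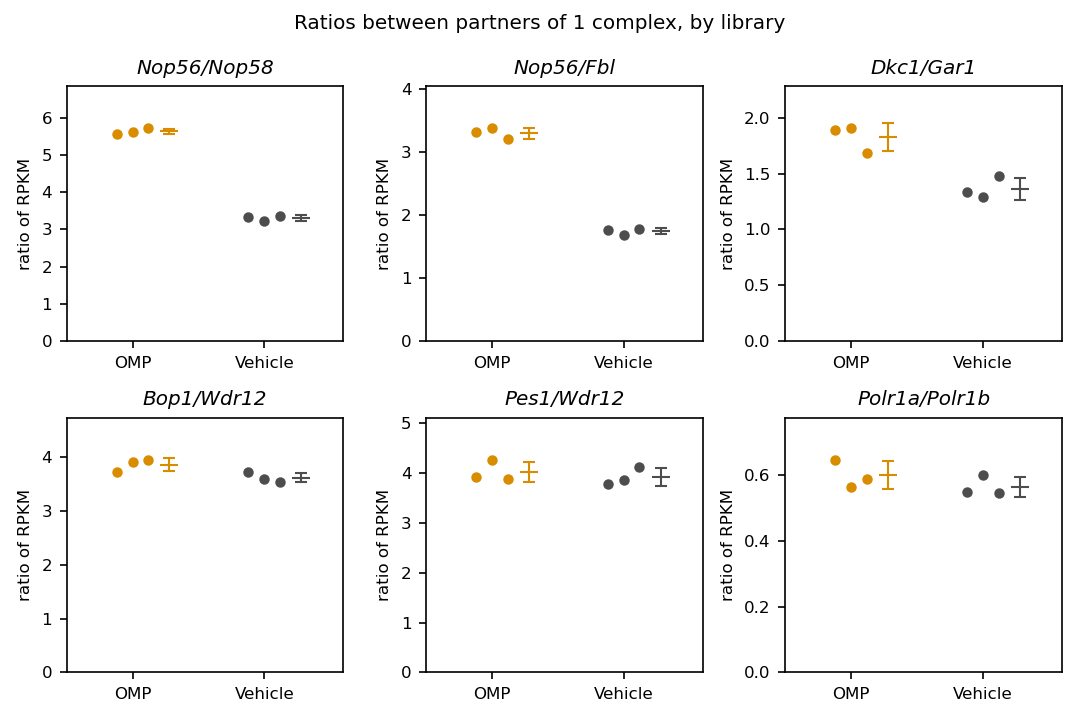
RPKM ratios of 6 pairs of partners in each of the 3 OMP libraries (left, orange) and the 3 Vehicle libraries (right, dark grey), with mean and SD beside the points and axes from 0. Nop56 to Nop58, Nop56 to Fbl and Dkc1 to Gar1 are well apart between the groups, Bop1 to Wdr12 differs by little more than its scatter, and Pes1 to Wdr12 and Polr1a to Polr1b overlap.

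The small-subunit processome is the large particle that forms on nascent precursor rRNA around the U3 snoRNP. Of its 9 factors here, 6 rose, 1 fell and 2 did not pass, with a median log2 fold change of 0.45. Utp20, a large scaffold of helical repeats, had 23.1, 19.4 and 22.0 RPKM in OMP and 11.3, 11.6 and 12.5 RPKM in Vehicle. It rose 1.79-fold (0.84 ± 0.08 on the log2 scale, limma adjusted p = 0.000106), without overlap. Wdr43, a member of the subcomplex that first joins the precursor, was the most abundant, with 114.2, 113.7 and 112.6 RPKM in OMP and 84.4, 82.5 and 80.0 RPKM in Vehicle. It rose 1.38-fold, also without overlap (limma adjusted p = 4.24e-05). Heatr1 and Wdr75 belong to the same early subcomplex as Wdr43, and Wdr3 to a second one. Heatr1 averaged 40.5 ± 0.555 RPKM in OMP and 27.7 ± 1.06 RPKM in Vehicle. Wdr75 averaged 57.2 ± 2.26 RPKM in OMP and 41.8 ± 1.73 RPKM in Vehicle. Wdr3 averaged 49.9 ± 1.36 RPKM in OMP and 35.9 ± 1.80 RPKM in Vehicle (SD, n = 3 each). Their log2 fold changes of 0.54, 0.45 and 0.47 all passed (limma adjusted p 8.2e-05 to 0.000258). Noc4l, a partner of Nop14, rose less, by 0.21 ± 0.04 (limma adjusted p = 0.00477).

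Imp3 and Imp4, which bind the U3 RNA together with Mphosph10, did not pass as higher. Imp4 had 20.7, 22.4 and 24.1 RPKM in OMP and 25.8, 25.6 and 26.1 RPKM in Vehicle. Imp3 had 55.1, 70.1 and 64.0 RPKM in OMP and 75.9, 68.2 and 63.2 RPKM in Vehicle. The groups were apart for Imp4, which fell by 0.20 ± 0.07 on the log2 scale (limma adjusted p = 0.0351), and overlapped for Imp3 (-0.13 ± 0.09, adjusted p = 0.287). The Imp4 call was the least stable of the 37, lost in 9 of 17 processing alternatives. Its log2 fold change was -0.12 with median-of-ratios scaling (adjusted p = 0.179), -0.11 with quantile normalization (adjusted p = 0.199), -0.10 with the GC and length trend removed (adjusted p = 0.28) and -0.20 with no filter on low values (adjusted p = 0.0583). Without any single library other than OMP replicate 3 it also failed (adjusted p 0.0704 to 0.0949). Ddx10, a helicase, averaged 33.3 ± 2.59 RPKM in OMP and 30.2 ± 1.43 RPKM in Vehicle, with overlap (0.14 ± 0.07, limma adjusted p = 0.138). It passed as higher with median-of-ratios scaling (0.23, adjusted p = 0.0316), with the GC and length trend removed (0.26, adjusted p = 0.0166) and without OMP replicate 2 (0.20, adjusted p = 0.0471).

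Later steps of small-subunit maturation were represented by 4 factors, and all 4 rose. Nob1, the endonuclease that makes the final cut of the small-subunit rRNA, had 68.0, 66.4 and 66.0 RPKM in OMP and 52.4, 49.2 and 48.3 RPKM in Vehicle. The difference of 0.42 ± 0.05 on the log2 scale came without overlap (limma adjusted p = 0.00022). Rrp12, which takes part in the export of both subunits in yeast, had 30.8, 30.1 and 30.6 RPKM in OMP and 19.1, 20.5 and 19.9 RPKM in Vehicle. At 1.52-fold it had the largest rise of the 4 (limma adjusted p = 6.31e-05). Bysl, a factor needed for processing of the small-subunit precursor, rose 1.45-fold (limma adjusted p = 0.000305). Ltv1, which is removed late in maturation, had 44.2, 43.8 and 49.2 RPKM in OMP and 34.4, 42.2 and 36.5 RPKM in Vehicle. Its lowest OMP library lay just above its highest Vehicle library (0.28 ± 0.08, limma adjusted p = 0.0248). The Ltv1 call was lost with TPM scaling (0.20, adjusted p = 0.0914), with no filter on low values (adjusted p = 0.0623) and without OMP replicate 3, Vehicle replicate 1 or Vehicle replicate 3 (adjusted p 0.0702 to 0.0798).

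Large-subunit assembly factors were the largest role group, with 12 of 13 higher, none lower, and log2 fold changes of 0.22 to 0.74. Nop2, a cytosine methyltransferase of the large-subunit rRNA, had 89.0, 91.4 and 97.6 RPKM in OMP and 55.6, 58.0 and 52.5 RPKM in Vehicle. Ftsj3, which methylates rRNA riboses, had 73.1, 75.6 and 77.4 RPKM in OMP and 44.6, 49.1 and 45.2 RPKM in Vehicle. Both were well clear of overlap and rose 1.67-fold and 1.62-fold (limma adjusted p = 2.35e-05 and 2.45e-05). Nop2, whose promoter holds CACGTG as shown above, lies at GRCm38 chr6:125131909-125144753 on the plus strand (ENSMUSG00000038279). Ddx21, a helicase that also acts in RNA polymerase I and II transcription, was the most abundant of the 13 with 150.9, 142.3 and 155.1 RPKM in OMP and 105.2, 112.0 and 111.8 RPKM in Vehicle. It rose 1.36-fold without overlap (limma adjusted p = 0.000146), and Ddx18, a related helicase, rose 1.35-fold (adjusted p = 0.000275).

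Bop1, Pes1 and Wdr12 form 1 complex, PeBoW, that is needed to process the large-subunit rRNA. Bop1 had 69.9, 71.3 and 75.5 RPKM in OMP and 59.1, 56.5 and 54.2 RPKM in Vehicle. Pes1 had 73.6, 77.7 and 74.3 RPKM in OMP and 60.04, 60.62 and 63.06 RPKM in Vehicle. Wdr12 had 18.7, 18.2 and 19.1 RPKM in OMP and 15.9, 15.7 and 15.3 RPKM in Vehicle. None of the 3 overlapped, and they rose by 0.35 ± 0.05, 0.29 ± 0.04 and 0.25 ± 0.06 on the log2 scale (limma adjusted p 0.000793 to 0.00865). The height of ratios to Wdr12 rests on its length, since its RPKM was computed over 10012 bases while its next longest protein-coding transcript has 3251. Bop1 to Wdr12 was 3.73, 3.91 and 3.95 in OMP and 3.72, 3.60 and 3.55 in Vehicle (log2 difference 0.09, exact permutation p = 0.1, adjusted 0.15). Pes1 to Wdr12 was 3.93, 4.27 and 3.89 in OMP and 3.78, 3.87 and 4.13 in Vehicle, with overlap (0.04, exact permutation p = 0.5).

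Nop16, a MYC target in human cells, and the assembly factors Ppan, Rrs1, Mrto4 and Ebna1bp2 made up most of the remainder. Ebna1bp2 had the smallest rise, with 60.2, 57.1 and 58.2 RPKM in OMP and 49.9, 51.3 and 49.0 RPKM in Vehicle (0.22 ± 0.04, limma adjusted p = 0.00397). Its groups were apart. Nop16 had 61.6, 68.5 and 67.2 RPKM in OMP and 41.3, 56.1 and 44.6 RPKM in Vehicle, the widest scatter of the called large-subunit factors (0.48 ± 0.10, limma adjusted p = 0.00616). Ppan, Rrs1 and Mrto4 rose by 0.35, 0.33 and 0.31 (limma adjusted p 0.000443 to 0.00699). Wdr74, a partner of the ATPase Nvl, was the one factor near the detection limit, with 0.951, 1.40 and 1.12 RPKM in OMP and 0.444, 1.22 and 0.978 RPKM in Vehicle. That is 15 reads over the OMP libraries and 13 over the Vehicle libraries, where 3 reads correspond to 0.713 RPKM in the shallowest library. A difference in Wdr74 was not detectable at this depth (0.30 ± 0.32, limma adjusted p = 0.476).

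Exosc5, a ring subunit of the RNA exosome, which trims and degrades rRNA precursors, moved the other way. It had 41.4, 52.3 and 46.4 RPKM in OMP and 63.38, 62.56 and 59.98 RPKM in Vehicle, so that every OMP library was below every Vehicle library. Exosc5 (ENSMUSG00000061286, GRCm38 chr7:25659164-25671368, plus strand) was 1.33-fold lower in OMP (log2 fold change -0.41 ± 0.08, limma adjusted p = 0.00349). It was the one fall that held in all 17 processing alternatives, with a largest adjusted p of 0.0135. Part of its annotated exons, 5.66%, overlap Tmem91 on the opposite strand, and without a stated strand setting of the counting, reads of the shared bases cannot be told apart.

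Other genes of the same pathway were also more often higher than lower in OMP. Of 135 tested genes of ribosome assembly outside the 44, 70 rose (51.9%), 10 fell (7.41%) and 55 did not pass, with a median log2 fold change of 0.20. Among the small-subunit processome 24 of 39 rose and none fell, against 19 and 4 with TPM scaling. Among the 49 genes listed as large-subunit factors, 32 rose and 3 fell (Nvl, Rsl24d1 and Spata5). For RNA polymerase I, 4 of 12 rose (Polr1g, Taf1c, Taf1d and Rrn3) and Polr1h fell. Of 9 genes listed under box C/D snoRNPs, Snu13, Nufip1, Znhit6 and Pih1d1 rose, and Znhit3 and 4930453N24Rik fell. The groups overlapped for Snu13 (0.34, limma adjusted p = 0.0424). The gene 4930453N24Rik was entered as Nopchap1, a match of symbols that was not verified here, and it counts among the 10 falls. Of 2 genes of box H/ACA assembly Naf1 rose. Of 9 genes listed under late small-subunit maturation, Tsr1, Pno1 and Riok1 rose and Tsr3, Riok3 and Nop53 fell. Nop53 was entered in that list although it acts in large-subunit assembly, so its fall is not one of small-subunit maturation. None of Npm3, Gnl3l and Nol12 passed. Of 12 further exosome genes, Exosc10 (0.40) and Exosc3 (0.18) rose and Exosc8 (-0.29) fell, and with median-of-ratios scaling 6 rose and 1 fell, against 1 and 3 with TPM. The genes named here in groups of up to 5 were picked for their calls, after their values were seen.

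The genes of this wider list with the largest called rises and falls follow. Mdn1, the giant ATPase that remodels large-subunit precursors, averaged 14.0 ± 3.25 RPKM in OMP and 6.76 ± 0.391 RPKM in Vehicle (log2 fold change 0.98 ± 0.15, limma adjusted p = 0.00093). Its OMP libraries were uneven, at 17.7, 11.7 and 12.7 RPKM, against 6.39, 6.73 and 7.17 RPKM in Vehicle. With the GC and length trend removed its log2 fold change was 0.73, below those of Noc3l (0.86), Nifk (0.83) and Nop14 (0.82). Nop14, the processome partner of Noc4l, averaged 53.0 ± 3.36 RPKM in OMP and 31.5 ± 1.32 RPKM in Vehicle (0.74 ± 0.06, adjusted p = 4.13e-05). As deposited, Noc3l (0.73) and Nifk, which binds the proliferation antigen Ki-67 (0.72), came next. The largest falls were in Tsr3, an rRNA-modifying enzyme, and Polr1h, a small polymerase I subunit that the table lists as Znrd1. Tsr3 averaged 10.2 ± 1.79 RPKM in OMP and 15.1 ± 1.54 RPKM in Vehicle (-0.54 ± 0.13, limma adjusted p = 0.00886). Polr1h averaged 27.3 ± 2.67 RPKM in OMP and 39.8 ± 3.17 RPKM in Vehicle (-0.54 ± 0.08, adjusted p = 0.00122; SD, n = 3 each). Spata5 (-0.46) and Znhit3 (-0.41) came next, and Znhit3 did not pass with median-of-ratios scaling (-0.32, adjusted p = 0.0574), quantile normalization (-0.31, adjusted p = 0.0686) or the GC and length trend removed (-0.31, adjusted p = 0.0587).

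**Figure D4:**
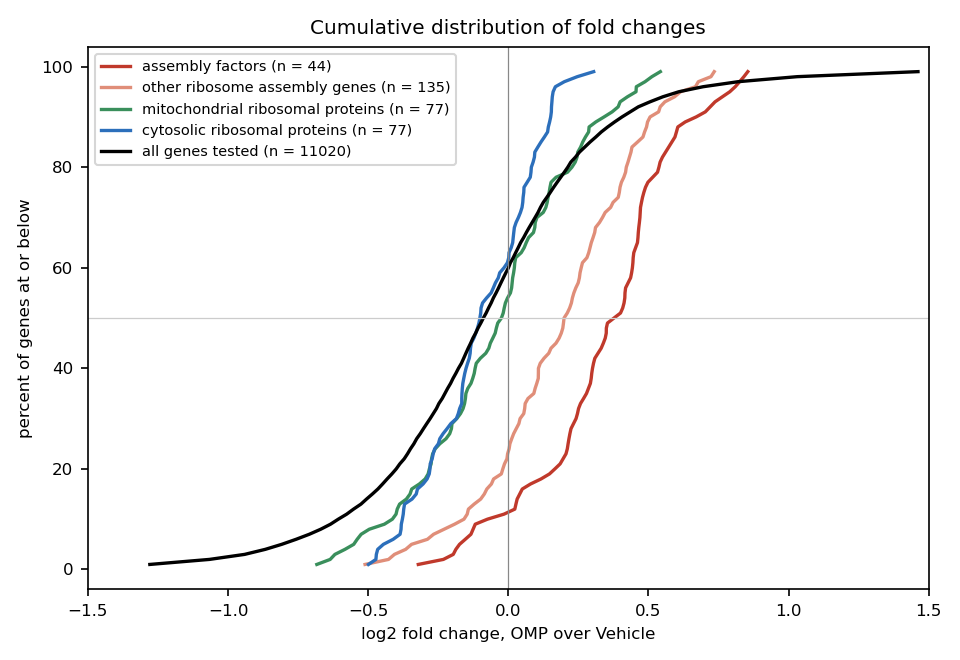
Cumulative percent of genes at or below each log2 fold change, OMP over Vehicle, for the 44 factors, 135 other ribosome assembly genes, 77 mitochondrial and 77 cytosolic ribosomal protein genes and all 11020 genes tested. The curve of the factors crosses 50% at 0.38 and that of the other assembly genes at 0.20, while the ribosomal protein curves cross it at -0.02 and -0.10 and that of all genes at -0.09.

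Neither the cytosolic ribosomal proteins, which the factors assemble onto the rRNA, nor the mitochondrial ones followed. Of 77 cytosolic ribosomal protein genes, 8 rose and 34 fell, with a median log2 fold change of -0.10. Their balance depended on scaling, with 22 rises and 24 falls under median-of-ratios scaling and 2 and 46 with TPM. Of 77 mitochondrial ribosomal protein genes, 16 rose and 17 fell, with a median of -0.02. With TPM 9 rose and 28 fell (median -0.11), and with median-of-ratios scaling 22 rose and 12 fell (median 0.06), so their balance turned with scaling as well. Quantile normalization gave 21 rises and 13 falls, and the GC and length correction 22 and 11 (median 0.04 in both). Genes of replication and mitosis fell in 18 of 20 cases (median -0.65), and their summed level was 1018 to 1028 RPKM in OMP and 1593 to 1612 RPKM in Vehicle. Rrm2, a ribonucleotide reductase subunit, averaged 68.6 ± 1.95 RPKM in OMP and 169.7 ± 2.20 RPKM in Vehicle (-1.30 ± 0.04, limma adjusted p = 1.38e-07). Mki67, which encodes Ki-67, averaged 27.3 ± 1.57 RPKM in OMP and 38.4 ± 2.91 RPKM in Vehicle (-0.48 ± 0.07, adjusted p = 0.000825; SD, n = 3 each). In a bulk library fewer cycling cells and less of these mRNAs per cell cannot be told apart. The part that the marker and replication genes have in the rise of the assembly factors was not tested.

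Myc itself, a known activator of such genes, averaged 217.0 ± 11.6 RPKM in OMP and 203.8 ± 4.18 RPKM in Vehicle (SD, n = 3 each), and did not pass (0.09 ± 0.04, limma adjusted p = 0.137). It passed as higher with median-of-ratios scaling (0.18, adjusted p = 0.0102) and with the GC and length trend removed (0.17, adjusted p = 0.0105). With TPM scaling (0.0046, limma adjusted p = 0.944) and quantile normalization (0.04, limma adjusted p = 0.522) Myc did not pass. Max, its partner, fell to 34.0 ± 2.63 RPKM in OMP against 44.3 ± 2.87 RPKM in Vehicle (limma adjusted p = 0.00313), and Mxd1, which competes with MYC for MAX, rose to 19.2 ± 2.26 RPKM in OMP against 11.0 ± 0.988 RPKM in Vehicle (adjusted p = 0.000509). Max and Mxd1 were picked after their values were seen.

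Several factors also host snoRNA genes in their introns or exons, a feature the choice of genes did not use. By the annotation, 7 of the 44 (15.9%) hold snoRNA genes on their own strand, 21 in all, against 2.10% of the 9884 protein-coding genes tested. They are Ncl, Gnl3, Nop56, Nop58, Dkc1, Wdr43 and Ppan. Of these 7, 6 rose and none fell, with a median log2 fold change of 0.46, and the median of the other factors was 0.33. Of all 208 protein-coding hosts tested, 39 rose and 62 fell, with a median of -0.03.

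Read sharing with pseudogenes touched a few factors. Of the 44, 25 share no stretch of 50 bases with another annotated gene, and 6 share over 20% of theirs: Fbl (70.4%), Ddx18 (62.7%), Npm1 (40.9%), Nop56 (37.6%), Mrto4 (25.3%) and Pes1 (21.0%). How reads matching several places were counted is not stated, so the levels of these 6 are less certain. Genes that share at least 100 such stretches with Npm1 held 206 reads over the OMP libraries and 230 over the Vehicle libraries, against 18871 and 17895 reads on Npm1. For Nop56 the copies held 5 and 10 reads, against 4953 and 3189 on the gene, and for Fbl 1 and 0 reads, against 960 and 1167. Annotated exons of Wdr3 (16.2%) and Bysl (9.37%) overlap a gene on the opposite strand, and those of Nop56 (8.12%) overlap mostly snoRNA genes on its own strand.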

How the data were processed

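RNA of 3 OMP and 3 Vehicle libraries was poly(A)-selected and prepared with Illumina TruSeq reagents, per the labels' protocols. The authors deposited RPKM values, that is reads per gene length and library total, with a column for each library. STAR 2.5.3a, featureCounts 1.6.3, Trimmomatic 0.36, FastQC 0.11.5 and the build mm10 (GRCm38) are named in the submitters' processing notes. Annotation release, strand setting and treatment of multi-mapped reads were not given in the sources used here. Of the genes above 0 in any library, 100% of values came out as whole reads (relative tolerance 1e-06), from which library totals and reads per gene were taken. At these totals 3 reads of a 1 kb gene stand for 0.706 to 0.858 RPKM. Chi-square per degree of freedom between libraries of a group was 1.19 to 1.60, so none was a duplicate.

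Genes that reached RPKM 1 in 3 or more of 6 libraries were fitted as log2(RPKM + 0.5) with limma 3.58.1 (R 4.3.3; trended prior variance, no covariates, two-sided, Benjamini-Hochberg over all genes tested, threshold 0.05). The fold change is on that scale and understates changes of low genes. The whole table was fitted, and the procedure was tested on simulated data with a small set of genes changed at random in either direction. That simulation does not cover the many calls and the uneven balance of rises and falls seen here. The factors, role groups and lists were chosen with earlier results of these data known, and counts and medians over a list are descriptions without a test. Per-library values are given for the largest and smallest change and the highest level in each role group and for 13 factors set by name. Outside this rule they are also given for Polr1e, Rrp9, Imp3, Ftsj3, Nop16, Wdr74 and Mdn1. Of the wider pathway list, the 4 largest called rises and 4 largest called falls among genes averaging RPKM 5 or more in the higher group are named. Mphosph10 is given as the partner of Imp3 and Imp4. Of 137 pathway symbols 136 matched a row and Riok2 was not analysed here; Exosc6 was listed at 0 and not tested. Ratios were compared by exact permutation of libraries. Coordinates are from GENCODE M21 on GRCm38, promoters from RefSeq on GRCm38.p6, and protein sequences were not used here. Alternatives were other pseudocounts, filters, scalings and thresholds, a robust prior, limma-voom on recovered reads, a GC and length correction, a replicate block and leaving out each library. Figures were drawn with matplotlib 3.10.9 in Python 3.11.15.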

Additional observations from a re-analysis of the deposited data

How the results depend on the processing

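Of the 37 called factors, 32 kept their call in all 17 processing alternatives (31 higher, and Exosc5 lower), and Imp4, Nhp2, Tcof1, Ltv1 and Nop10 lost it in at least 1. Of the 7 uncalled factors, Ddx10 and Fbl gained one. No called factor changed sign. The median log2 fold change of the factors was 0.38 as reported. It was 0.41 with a pseudocount of 0.1, 0.40 with a filter at RPKM of 5, 0.32 with TPM, 0.47 with median-of-ratios scaling, 0.41 with limma-voom, 0.47 with the GC and length trend removed, and 0.37 to 0.40 with 1 library left out. Its distance from the median of all genes stayed between 0.39 and 0.51; that median, -0.09 as reported, was 0.0042 with the GC and length correction. The number of factors lower in OMP was 3 as reported. It was 1 with median-of-ratios scaling, quantile normalization, the GC and length correction and an adjusted p under 0.01, and ran from 1 to 3 with 1 library left out, at 1 without OMP replicate 2, Vehicle replicate 1 or Vehicle replicate 3. Other ribosome assembly genes lower in OMP numbered 10 as reported, 18 with TPM and 6 with the GC and length correction; the cause was not tested. At an adjusted p under 0.01, 3070 genes passed in all, 1079 higher and 1991 lower. Requiring at least 1.5-fold left 7 factors, all 7 higher and 0 lower, 9 other assembly genes, all 9 higher and 0 lower, and 1425 genes in all, 434 higher and 991 lower. Replicate numbers did not pair the libraries: the correlation between deviations of libraries with the same number was -0.002, 0.015 and 0.007. With the number as a replicate block, 34 factors rose and 3 fell with a median of 0.38, 65 other assembly genes rose and 11 fell (76 in all), and 4445 genes passed in all, 1598 higher and 2847 lower. Depth limited the result for Wdr74.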

Other observations

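Few reads were assigned to the snoRNA genes inside the factors in these poly(A)-selected libraries. All snoRNA genes that overlap an annotated exon of their host were without reads in both groups. How reads on bases shared by overlapping genes were counted is not stated, so an absence of their transcripts cannot be read from this. Of the 21, Snord53 in Wdr43 had 17 reads over the 3 OMP libraries and 8 over the 3 Vehicle libraries, and Snord110 in Nop56 had 9 and 5 reads. Snord82 in Ncl had 1 and 2 reads. These counts are too few to compare between groups.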
